A study of Mus musculus with 12 samples.

Results

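Genes that encode granule and cytosolic proteins of neutrophils, 10 in all, were followed through normal and malignant mouse tissue. They were the primary granule genes Mpo, Elane, Prtn3 and Ctsg, the secondary granule genes Ltf, Ngp, Camp and Lcn2, and the cytosolic pair S100a8 and S100a9. The members were every array probe annotated to these 10 symbols, which gave 14 probes of 45281, and all 14 passed the filter on detection. They stood among 11754 genes tested. Mpo had 4 probes, Ltf had 2 and each of the others had 1. Ngp passed the filter only through the 2 bone marrow arrays, and Ctsg and Camp were detected outside marrow on 1 array each, so their differences from marrow follow in part from the filter.

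RNA was measured on Illumina bead arrays in 4 osteosarcomas, which are cancers of bone, 4 leiomyosarcomas, which are cancers of the smooth muscle lineage, and 2 samples each of bone marrow and muscle from normal tissue. All 12 samples were fresh frozen, untreated, and carried the same label for genotype, p53 flow/flox, including the normal tissues. The labels call the mice transgenic and p53 mutant, followed until a tumour or paralysis of a limb appeared, and they give no recombinase, promoter, age or sex. One muscle sample, replicate 1, and 1 bone marrow sample, replicate 2, carry the same animal code. The codes of all the other samples, the tumours among them, differ from one another. Beyond the codes nothing states that samples came from separate animals, and the p-values reflect the variation among these samples.

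Neutrophils are made in bone marrow, and their granules are filled in order as the cell matures. The primary granules come first, at the promyelocyte stage, and hold myeloperoxidase and the serine proteases. The secondary and tertiary granules follow at the myelocyte and metamyelocyte stages and hold iron-binding and antimicrobial proteins. Transcription of the granule genes falls as the cell matures, so blood and tissue neutrophils hold the proteins but little of the RNA for most of them, whereas S100a8 and S100a9 RNA stays abundant in mature neutrophils and is also made by monocytes. PU.1 and the C/EBP factors are the transcription factors best known at these promoters.

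The 250 bases upstream of the annotated start are shown for the genes on which the results turn: Mpo, the member that differed between the tumours, Elane and Prtn3, which lie next to each other and share its granule, and the neighbours S100a8 and S100a9. Sequences are from RefSeq, build GRCm38.p6, 5′ to 3′ on the gene's own strand, at chr11:87793534-87793783 and chr10:79886062-79886311 and chr10:79879417-79879666 on the plus strand, chr3:90668821-90669070 on the plus strand and chr3:90695722-90695971 on the minus strand. Capitals mark matches on either strand. The letters searched were GAGGAA for the core recognised by PU.1. They were TTNNGCAA for C/EBP factors. They were AACNGNC for MYB. They were AACCACA for RUNX factors. They were TATAAA for the TATA box.
Mpo: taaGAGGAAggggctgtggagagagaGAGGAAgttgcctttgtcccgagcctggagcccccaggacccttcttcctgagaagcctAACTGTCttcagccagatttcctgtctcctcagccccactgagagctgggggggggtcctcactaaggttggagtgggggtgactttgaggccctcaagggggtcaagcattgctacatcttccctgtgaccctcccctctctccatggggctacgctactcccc
Elane: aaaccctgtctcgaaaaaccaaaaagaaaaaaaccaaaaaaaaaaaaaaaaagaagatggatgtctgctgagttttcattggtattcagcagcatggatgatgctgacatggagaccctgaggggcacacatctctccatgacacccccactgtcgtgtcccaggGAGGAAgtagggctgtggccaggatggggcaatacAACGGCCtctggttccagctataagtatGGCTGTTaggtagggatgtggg
Prtn3: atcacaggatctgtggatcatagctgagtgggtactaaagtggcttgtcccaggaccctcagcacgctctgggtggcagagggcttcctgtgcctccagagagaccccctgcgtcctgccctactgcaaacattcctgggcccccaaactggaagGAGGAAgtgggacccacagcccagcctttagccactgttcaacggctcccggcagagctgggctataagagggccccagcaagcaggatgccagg
S100a8: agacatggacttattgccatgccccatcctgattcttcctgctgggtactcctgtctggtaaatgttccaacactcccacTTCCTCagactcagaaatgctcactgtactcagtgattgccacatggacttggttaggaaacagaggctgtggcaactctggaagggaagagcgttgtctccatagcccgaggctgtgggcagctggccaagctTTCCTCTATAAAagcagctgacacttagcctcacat
S100a9: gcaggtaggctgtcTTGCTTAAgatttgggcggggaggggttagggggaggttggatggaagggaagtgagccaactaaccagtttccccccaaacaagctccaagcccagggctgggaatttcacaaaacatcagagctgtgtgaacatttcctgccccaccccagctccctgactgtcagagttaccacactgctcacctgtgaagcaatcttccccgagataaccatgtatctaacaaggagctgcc

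All 10 members had such a window. GAGGAA was found in 7 of the 10 windows and in 23.3% of 32851 mouse windows of the same length. TTNNGCAA was found in 4 of 10 and in 9.56% of all windows, AACNGNC in 4 of 10 and 27.7%, TATAAA in 2 of 10 and 12.4%, and AACCACA in 0 of 10 and 4.40%. In Elane and Prtn3, both serine protease genes, GAGGAA lay at nearly the same place, 80 to 85 and 90 to 95 bases upstream of the start. In S100a8 the nearer of 2 reverse copies of GAGGAA adjoined TATAAA, at 31 to 36 and 25 to 30 bases upstream, and the capitals run together there. The Mpo window held 2 copies of GAGGAA, at 219 to 224 and 242 to 247 bases upstream, and no motif overlapped another. A match is a description of letters and shows no binding.

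Between 14169 and 18100 probes were detected on each array of 45281, and replicates of a tissue correlated across genes at 0.916 to 0.983. The constant by which each array's background was lowered was 80.8 to 84.2 on 6 arrays (both muscles, both marrows and leiomyosarcomas 1 and 2) and 99.3 to 110.1 on the other 6, so all osteosarcomas fell in the second set. Skeletal muscle markers had a summed signal of 78711 in osteosarcoma 1 against 239.8 to 6840 in the other osteosarcomas, and its part in the results below was not tested. Marrow held the marrow markers and the osteosarcomas the osteoblast markers, with 8 of 10 osteoblast genes higher in osteosarcoma than in each other tissue. Of all genes, 14.8%, 18.5% and 3.31% were called higher in osteosarcoma than in marrow, muscle and leiomyosarcoma. The leiomyosarcomas showed 0 of 9 smooth muscle markers above marrow and 3 of 9 below muscle, where 15.2% and 15.1% of all genes were. In bulk tissue, fewer cells of a type and less RNA per cell cannot be told apart.

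Bone marrow held every member at very high signal. Deposited signals of Ltf, lactoferrin, were 59469 and 60926 in the 2 marrows, and those of Lcn2, the siderophore-binding lipocalin 2, were 61144 and 59142. Mpo, the peroxidase that makes hypochlorous acid, gave 55671 and 56845. Signals of Elane, neutrophil elastase, were 26398 and 28986, and those of Prtn3, proteinase 3, were 17106 and 27599. Ctsg, cathepsin G, gave 8423 and 10102. Ngp, a cystatin-like neutrophil granule protein, gave 36649.9 and 31795, and Camp, the precursor of the mouse cathelicidin peptide, gave 31405 and 23844. S100a8 gave 52156 and 52633, and S100a9, its partner in the calprotectin dimer, gave 48387 and 40845. The largest disagreement between the marrows was in Prtn3, and the brightest members came close to the highest signal on any array, 65106. No saturation flag was used here.

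Outside marrow every member had a lower signal in every sample. Levels were compared as log2 normalised signal in 1 limma model of the 12 arrays. Called genes had a log2 difference of at least 1 and an adjusted p (Benjamini-Hochberg) below 0.05. In osteosarcoma all 10 members were lower than in marrow, where 13.0% of all genes were called lower, and their median difference was -9.27 against 0.03 over all genes. In leiomyosarcoma all 10 were lower, where 12.7% of genes were, with a median of -9.43. Marrow exceeded muscle for all 10, where 20.3% of genes were called higher, with a median of 8.79. These comparisons share the marrow arrays, so they are not independent of one another. Each count includes Ngp, which passed the filter only through the marrow arrays. Adjusted p-values of the members in them ranged from 6.21e-11 to 7.34e-04.

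**Figure D1:**
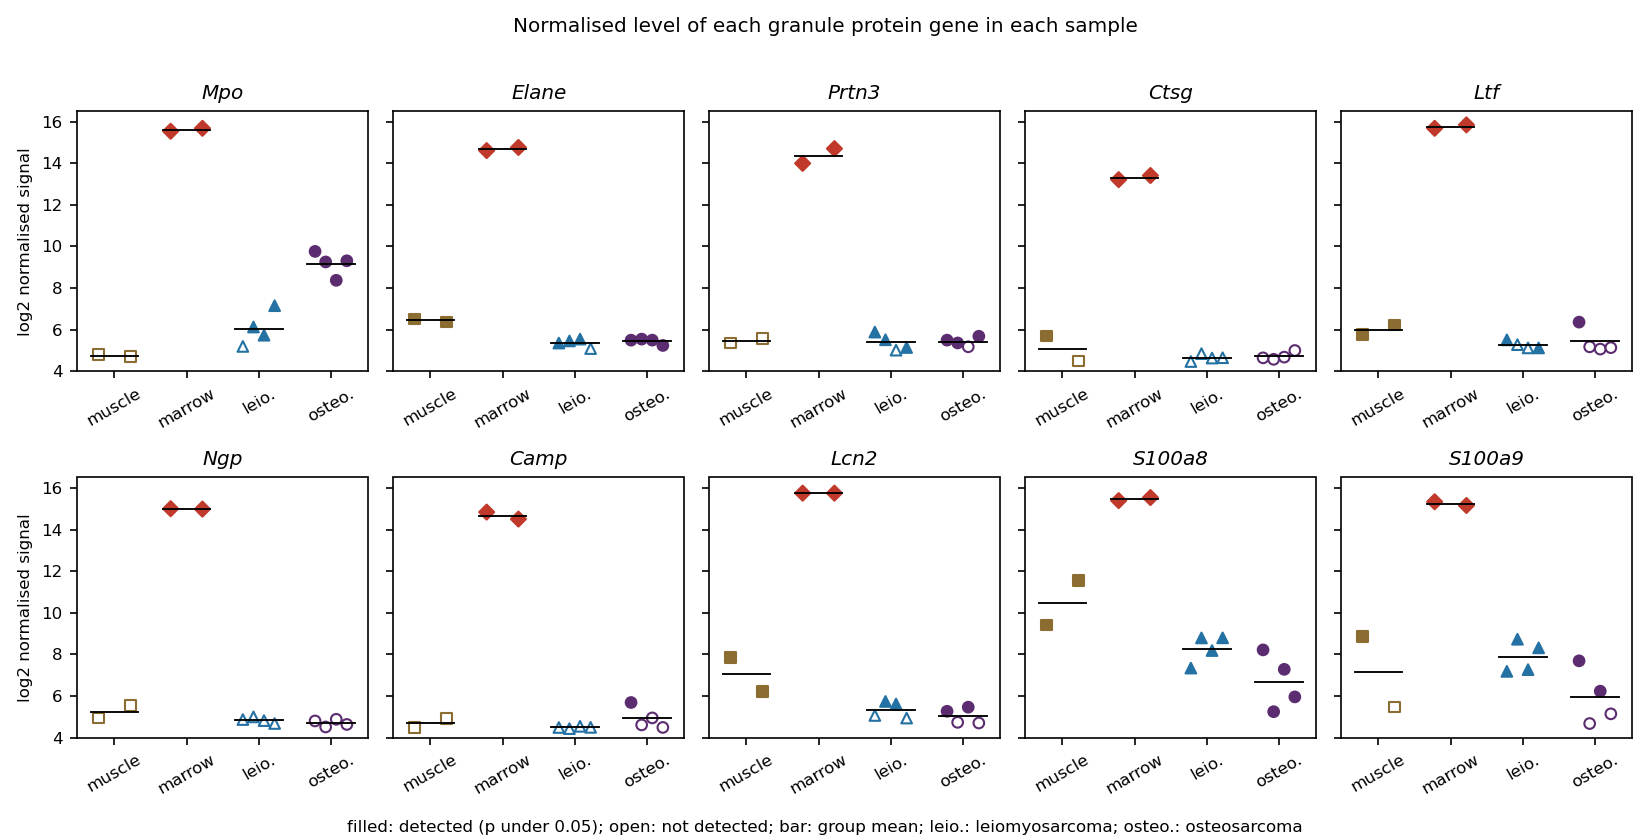
Level of each gene (log2 normalised signal, vertical axis) in each sample of the 4 tissues; filled points were detected, open points were not, and bars are group means. Both marrow samples lie above 13 for every gene, and Mpo is the only panel in which all 4 osteosarcomas lie above all other non-marrow samples.

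The secondary granule genes Lcn2, Ltf, Ngp and Camp were called lower than marrow in both tumours. In osteosarcoma they were detected on 2, 1, 0 and 1 of 4 arrays, so the size of each difference is set by the marrow signal over the limit of detection and gives no order among genes. Ltf fell by 10.32 ± 0.34 (SE) on the log2 scale, from 15.76 ± 0.12 (SD, n = 2) to 5.44 ± 0.62 (SD, n = 4), with a limma adjusted p of 1.57e-09. Ngp, which only the marrow arrays detected, was at least 867-fold lower (adjusted p = 6.26e-11), a difference that follows in part from the filter. Camp fell by 9.74 ± 0.30 (adjusted p = 1.07e-09). In leiomyosarcoma Ltf fell by 10.50 ± 0.34 and Camp at least 703-fold lower (adjusted p = 7.01e-10).

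Signals left in the tumours for these genes were near the limit of detection. Ltf gave 88.3, 22.1, 16.7 and 18.2 in osteosarcomas 1 to 4 and 30.2, 22.2, 25.6 and 23.2 in leiomyosarcomas 1 to 4, while muscle gave 22.9 and 30.7. Osteosarcoma 1 was thus the one tumour with a clear Ltf signal, and the other 3 osteosarcomas were not detected. Camp gave 46.5 in osteosarcoma 1, where it was detected, and at most 12.4 in every other tumour. Ngp stayed between -10.5 and 12.7 in all 8 tumours and was detected in none. Lcn2 gave 26.9, 3.31, 30.3 and 1.86 in the osteosarcomas and 15.4, 37.8, 50.9 and 14.6 in the leiomyosarcomas, detected on 2 of 4 in each. The tumour groups overlapped for all 4 genes, and none differed between osteosarcoma and leiomyosarcoma, with log2 differences from -0.30 to 0.45 and adjusted p-values from 0.282 to 0.749. The second Ltf probe, at 2923 and 3247 in marrow, was detected in no other sample.

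Among the primary granule genes, Elane fell by 9.23 ± 0.19 from marrow to osteosarcoma (adjusted p = 6.26e-11), Prtn3 fell by 8.92 ± 0.29 (adjusted p = 1.35e-09), and Ctsg was at least 271-fold lower (adjusted p = 1.90e-09). In leiomyosarcoma the differences from marrow were -9.32 ± 0.19 for Elane and -8.96 ± 0.29 for Prtn3, and Ctsg was at least 274-fold lower. Elane was detected at low signal in all 4 osteosarcomas, at 37.1, 37.0, 31.6 and 21.5 in osteosarcomas 1 to 4. It gave 25.1, 27.8, 47.2 and 21.8 in leiomyosarcomas 1 to 4 and was not detected in the last. Prtn3 gave 37.2, 29.3, 20.5 and 36.7 in the osteosarcomas and 44.1, 29.8, 20.04 and 24.04 in the leiomyosarcomas. Ctsg was detected in no tumour. For all 3 protease genes the tumour types overlapped.

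Mpo was detected in all 4 osteosarcomas, where it differed from marrow by -6.43 ± 0.47 (adjusted p = 9.50e-07), whereas in leiomyosarcoma it differed by -9.55 ± 0.47 (adjusted p = 4.47e-08). Osteosarcomas 1 to 4 gave deposited signals of 1044, 786, 323 and 619, leiomyosarcomas 1 to 4 gave 19.8, 54.0, 57.9 and 176, and the muscles gave 3.31 and 0.554. Every osteosarcoma exceeded every leiomyosarcoma, as was so for 8.13% of all genes. Relative to the marrow mean of the brightest probe, whose saturation in marrow is unknown, osteosarcoma held 1.23% of the Mpo signal and leiomyosarcoma 0.137%, while for Elane the shares were 0.115% and 0.110% and for Prtn3 0.138% and 0.132%.

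**Figure D2:**
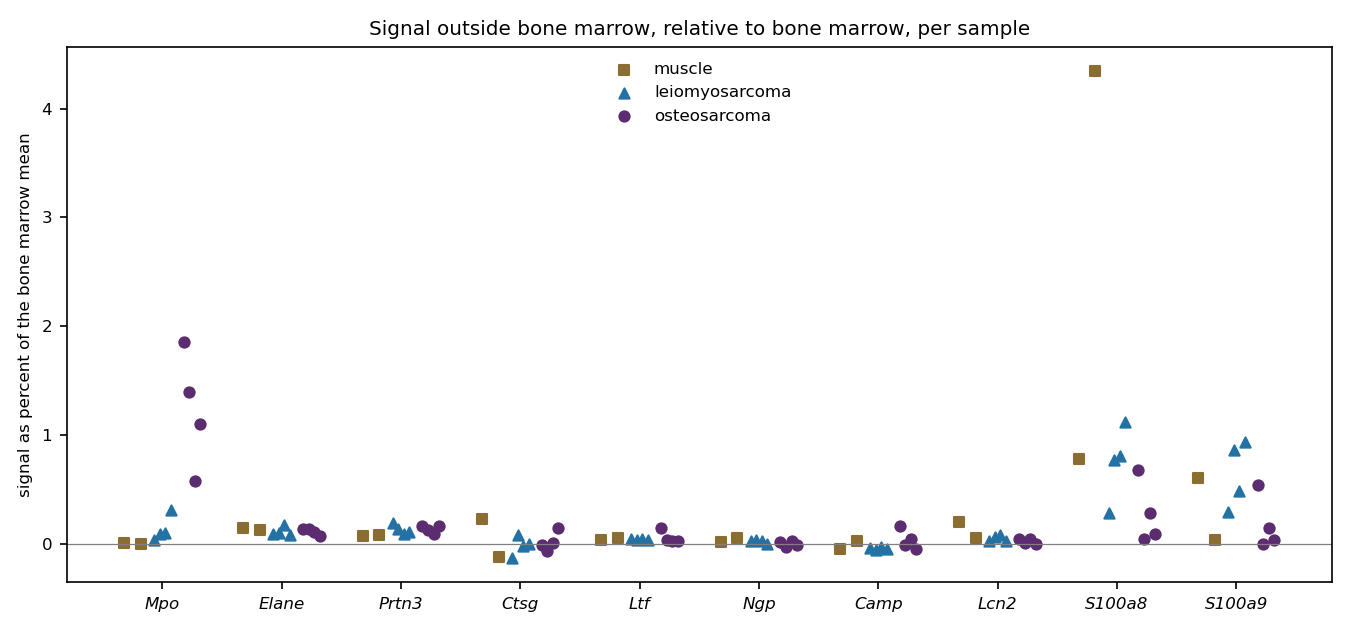
Deposited signal in each sample outside marrow as a percent of the same probe's mean in the 2 marrows (vertical axis), for the 10 genes. The osteosarcomas reach 0.575% to 1.86% for Mpo, muscle replicate 2 reaches 4.34% for S100a8, and 7 of the 10 genes stay at or below 0.232% everywhere.

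Mpo was the only member called between the tumour types, where 3.31% of all genes were called higher in osteosarcoma and 4.34% lower. Its difference was 3.12 ± 0.39 on the log2 scale, from 6.05 ± 0.83 (SD, n = 4) in leiomyosarcoma to 9.18 ± 0.58 (SD, n = 4) in osteosarcoma, with a limma adjusted p of 5.14e-04. The other genes of the same granule were not called, with an interval of the difference (95%) from -0.26 to 0.43 for Elane, -0.47 to 0.55 for Prtn3 and -0.44 to 0.59 for Ctsg, all below the interval of Mpo, 2.28 to 3.97. Because array background differed between the groups, Mpo was also compared with background level as a block, which gave 2.73 ± 0.45 (adjusted p = 0.00625), and within the 6 arrays of higher background, which gave 2.73 ± 0.50 (adjusted p = 0.0332). Without osteosarcoma 1, the sample with the highest muscle marker signal, the difference was 2.93 ± 0.41 (adjusted p = 0.00188). Against muscle, Mpo in osteosarcoma was at least 11.8-fold higher (adjusted p = 2.39e-05), where 18.5% of all genes were called higher.

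The Mpo probes were read one by one, a step added after the data were seen. The second brightest gave 617, 515, 220.1 and 365 in the osteosarcomas against 19.5, 17.7, 55.5 and 89.9 in the leiomyosarcomas, a log2 difference of 2.93 ± 0.29 (limma adjusted p = 1.13e-04 over 18013 probes). The third gave 161, 176, 55.1 and 102 against -3.61, -1.84, 0.935 and 30.9, a difference of 2.00 ± 0.26 (adjusted p = 7.43e-04). The fourth, the dimmest in marrow at 2494 and 2603, was detected in no tumour and differed by -0.08 ± 0.14 (adjusted p = 0.801). As a share of each probe's own marrow mean, the osteosarcomas averaged 1.23%, 1.10%, 0.895% and -0.00963% on the 4 probes, the highest osteosarcoma on the fourth being at 0.267%. Thus 3 of 4 probes separated the tumours without overlap. The fourth was below detection in both and did not show the osteosarcoma signal of the others. Its highest osteosarcoma share lay under the lowest on any of the other 3, 0.400%. Why the fourth probe differed was not tested.

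The gene that precedes Mpo on chromosome 11 in the RefSeq order, Tspoap1, which encodes a synaptic active-zone scaffold protein, was examined after its values were seen. Its signal was 305, 358, 197 and 302 in osteosarcomas 1 to 4, 0.473, 10.8, 13.8 and 24.1 in leiomyosarcomas 1 to 4, 18.9 and 10.7 in muscle, and 683 and 754 in marrow. Every osteosarcoma exceeded every leiomyosarcoma and muscle, with a difference from leiomyosarcoma of 3.12 ± 0.19 on the log2 scale (limma adjusted p = 1.91e-06) and, with background as a block, of 3.01 ± 0.23 (adjusted p = 4.91e-05). Its second probe was detected in no sample. Epx, the eosinophil peroxidase gene 3 places after Mpo, gave 1532 and 618 in marrow, at most 15.0 in the osteosarcomas, and differed between the tumours by 0.10 ± 0.23 (adjusted p = 0.834). Supt4a and Mks1, also within 3 places, were not called. Whether the signals of Mpo and Tspoap1 share a transcript was not tested.

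**Figure D3:**
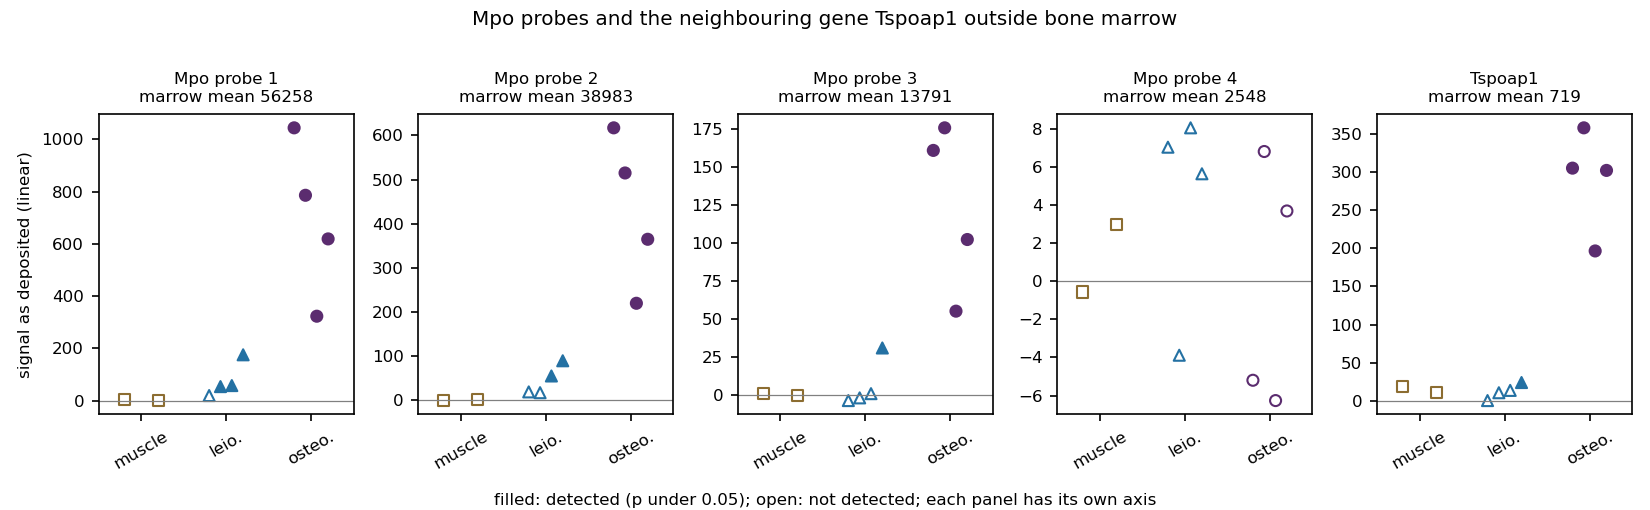
Deposited signal (linear, own axis for each panel) of the 4 Mpo probes and of Tspoap1 in muscle, leiomyosarcoma and osteosarcoma; filled points were detected. In 3 Mpo panels and in the Tspoap1 panel all 4 osteosarcomas lie above all other samples, and in the fourth Mpo panel nothing is detected.

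S100a8 and S100a9, which bind calcium and zinc and act as alarmins once released, were the members most present in leiomyosarcoma. S100a8 gave 148, 402, 421 and 589 in leiomyosarcomas 1 to 4 and 355, 24.7, 147 and 48.6 in osteosarcomas 1 to 4. S100a9 gave 131, 384, 216 and 419 in the leiomyosarcomas and 242, 0.255, 64.5 and 18.4 in the osteosarcomas. Osteosarcoma 1 overlapped the leiomyosarcomas for both genes, and the signals of the other 3 osteosarcomas lay below the lowest of them. The shares of the marrow mean were 0.744% and 0.645% in leiomyosarcoma and 0.275% and 0.182% in osteosarcoma.

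Between the tumour types neither gene was called. S100a8 differed by -1.60 ± 0.64 on the log2 scale (limma adjusted p = 0.128, interval -2.99 to -0.21) and S100a9 by -1.94 ± 0.76 (adjusted p = 0.122, interval -3.59 to -0.29). The result for S100a8 turned on osteosarcoma 1, without which it was called, at -2.12 ± 0.58 (adjusted p = 0.0481). S100a9 was still not called without that sample, at -2.52 ± 0.71 (adjusted p = 0.0509). Against marrow both were lower in osteosarcoma, with differences for S100a8 of -8.79 ± 0.78 (adjusted p = 4.11e-06) and for S100a9 of -9.31 ± 0.92 (adjusted p = 1.04e-05), and in leiomyosarcoma, where the differences were -7.18 ± 0.78 and -7.37 ± 0.92.

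Across the 8 tumours S100a8 and S100a9 moved together, with Pearson's r of 0.974 (exact permutation p = 4.96e-05, adjusted 0.00223 over 45 pairs of members) and Spearman's rho of 0.976 (exact permutation p = 3.97e-04, adjusted 0.0179). Without the 2 samples farthest from the median of S100a8, r was 0.910 over 6. Within the 6 tumours of higher background r was 0.987 and rho was 1.00 (exact permutation p = 0.00139 for r, the smallest these permutations can give). These permutations exchanged samples across the tumour types, so r and its p-values include any difference between the types. Within one tumour type there were 4 samples, too few for a value. The next closest pair, Ngp and Lcn2, had r = 0.865 with an adjusted permutation p of 0.131. In muscle the pair came apart: muscle replicate 1 gave 409.9 for S100a8 and 269.7 for S100a9, while replicate 2 gave 2275 for S100a8, the highest member signal outside marrow, and 16.8 for S100a9, which was not detected.

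**Figure D4:**
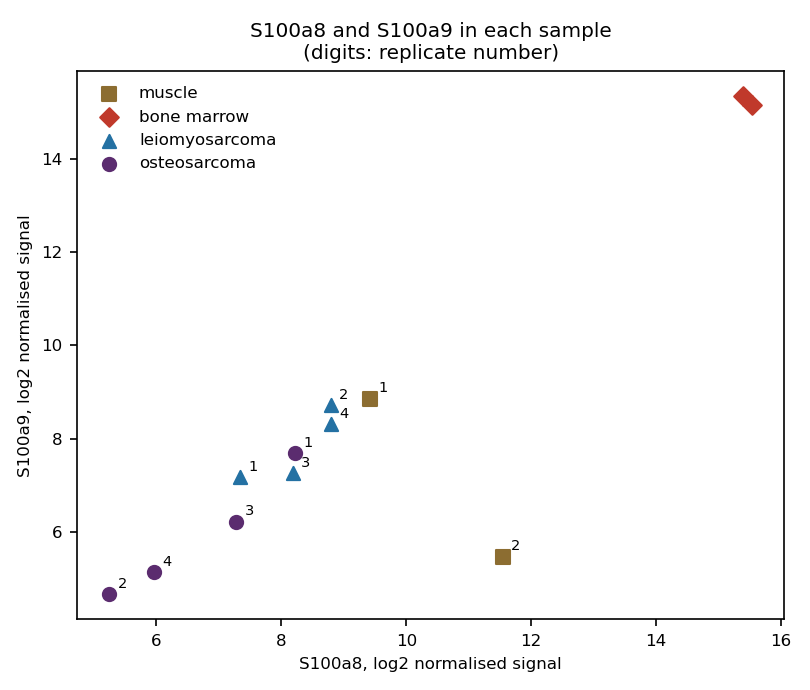
S100a8 (horizontal axis) against S100a9 (vertical axis), both as log2 normalised signal, in each of the 12 samples, with replicate digits beside those outside marrow. The 8 tumours lie along one line and muscle replicate 2 lies well off it, with high S100a8 and undetected S100a9.

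Compared with muscle, few members differed in the tumours, and these calls rest on 2 muscle samples that disagreed with each other. In osteosarcoma, besides Mpo, S100a8 (-3.81 ± 0.78, limma adjusted p = 0.00208) and Lcn2 (-2.00 ± 0.41, adjusted p = 0.00218) were lower, 2 members where 14.5% of all genes were called lower. Deposited signals of Lcn2 were 122 and 30.7 in the muscles, so the first lay above all 8 tumours and the second above 6 of them. On the normalised scale, which was the one tested, the muscles lay at 6.22 to 7.85, above all 8 tumours, the highest at 5.74. The osteosarcoma call of Lcn2 was lost with background level as a block (adjusted p = 0.0643). In leiomyosarcoma S100a8 (-2.20 ± 0.78, adjusted p = 0.0359), Lcn2 (-1.70 ± 0.41, adjusted p = 0.00537) and Elane (-1.08 ± 0.19, adjusted p = 8.01e-04) were lower, 3 members where 15.1% of genes were called lower. Mpo was higher by 1.30 ± 0.47 (adjusted p = 0.0412, at least 1.36-fold), where 20.1% of genes were.

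The leiomyosarcoma calls against muscle were fragile. That of S100a8 was lost without muscle replicate 2 (-1.14 ± 0.92, adjusted p = 0.363), and without either marrow or leiomyosarcoma 1 or 3 (adjusted p from 0.0507 to 0.0806). That of Lcn2 was lost without muscle replicate 1 (-0.88 ± 0.38, adjusted p = 0.0953), and that of Elane fell just short of the minimum difference without leiomyosarcoma 4 (-0.99, adjusted p = 0.0023). That of Mpo was lost without either muscle (adjusted p = 0.125 and 0.149), either marrow, leiomyosarcoma 2 or 4, or osteosarcoma 4 (adjusted p from 0.0503 to 0.0728). The Mpo call was also lost with background level as a block (0.91, adjusted p = 0.196), in the arrays of lower background alone (0.91, adjusted p = 0.0889), with the replicate block (1.27, adjusted p = 0.054), with median scaling (0.59, adjusted p = 0.313), without background correction (0.59, adjusted p = 0.145), without a detection filter (adjusted p = 0.0735), with the mean of its probes (0.57, adjusted p = 0.135) and with only the groups compared (adjusted p = 0.0656). Elane in osteosarcoma lay at the minimum difference, -0.998 ± 0.194 (adjusted p = 0.0015), and was called without muscle replicate 2 or osteosarcoma 1, 2 or 3 (-1.07 to -1.01). For Elane the deposited signals overlapped, 40.8 and 34.7 in muscle against 21.8 to 47.2 in leiomyosarcoma. The normalised levels that were tested did not, at 6.37 to 6.52 against 5.09 to 5.55. Prtn3, Ctsg, Ltf, Ngp, Camp and S100a9 were called in neither tumour against muscle, although without muscle replicate 2 S100a9 was called lower in osteosarcoma (-2.93 ± 0.95, adjusted p = 0.0355) and Ctsg in leiomyosarcoma (-1.04, adjusted p = 0.00884). With median scaling Ctsg, Ngp and Elane were called lower in osteosarcoma, and Ctsg, Ltf, Ngp and Camp in leiomyosarcoma.

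The 6 other genes whose profile over the 12 arrays was most like the mean of the members were Cd177, Ear3, Retnlg, Prg2, Ifitm6 and Cebpe, with root-mean-square differences from 0.39 to 0.60 log2 units. Cd177 is a neutrophil surface protein, and Cebpe a transcription factor needed for secondary granule genes in mice. Ear3 and Prg2 belong to eosinophil granules. Their levels in marrow were 12.67 to 15.00, and in the tumour means they were 4.62 to 5.44. Over the 8 tumours alone, the genes most correlated with S100a8 were Ssbp3 (r = 0.976), Stbd1 (0.964), Olfr133 (0.957) and Angptl7 (0.952), and with S100a9 Limk1 (0.972), Stbd1 (0.956), Ywhag (0.955) and Ssbp3 (0.949). For Lcn2 they were Igfbp4 (0.965), Homer2 (0.949), Cd209f (0.936) and Med18 (0.929), with Lcn2 itself detected in 4 of the 8. These are the highest of many correlations over few samples and are given as a description.

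Other neutrophil granule and secreted genes followed the members against marrow. Of 21 tested, 17 were lower in osteosarcoma and 18 in leiomyosarcoma, where 13.0% and 12.7% of all genes were, with medians of -4.61 and -4.68 on the log2 scale. Among those lower in osteosarcoma were Pglyrp1, a peptidoglycan-binding protein (-9.27 ± 0.39, limma adjusted p = 1.21e-08), Cd177 (at least 289-fold lower), Chil3, a chitinase-like protein (-8.48 ± 0.56), and Chil1 (-7.93 ± 0.72). Between the tumours 1 was higher in osteosarcoma and 3 were lower, where 3.31% and 4.34% of all genes were. The higher was Mmp9, gelatinase B of tertiary granules, which osteoclasts also make (2.89 ± 0.79, adjusted p = 0.0350). The lower were Lyz2 (-1.75 ± 0.41), Srgn (-1.34 ± 0.31) and Pglyrp1 (-1.22 ± 0.32). With background level as a block none of these 4 was called (adjusted p from 0.0729 to 0.218), at 2.18 for Mmp9 and -0.69 for Pglyrp1, while Lyz2 and Srgn were about as large, at -1.78 and -1.35. Mmp9 was also lost without either marrow, leiomyosarcoma 1, 2 or 4, or osteosarcoma 1 or 4 (adjusted p from 0.0563 to 0.0919). Pglyrp1 was lost without leiomyosarcoma 1, 2 or 3, or osteosarcoma 1, 2 or 4 (0.0582 to 0.0819), and Lyz2 without leiomyosarcoma 1 or 3 (0.0509 and 0.0520).

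Of 9 transcription factors of granulocyte development tested, 7 were lower in osteosarcoma than in marrow and 5 in leiomyosarcoma, where 13.0% and 12.7% of all genes were. Cebpe was at least 207-fold lower in osteosarcoma (adjusted p = 2.92e-10) and Gfi1, a repressor of monocyte genes, at least 25.6-fold (adjusted p = 5.35e-09). Gfi1 passed the filter only through the marrow arrays, so its difference from marrow follows in part from the filter. Spi1, which encodes PU.1, differed from marrow by -2.32 ± 0.42 in osteosarcoma and -2.46 ± 0.42 in leiomyosarcoma. None of the 9 was called between the tumour types. Gata2 fell short only of the minimum difference, at -0.96 ± 0.26 (limma adjusted p = 0.0321). Gfi1 and Myb were detected in no tumour.

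Of 16 surface receptors of mature neutrophils, 15 were lower than marrow in osteosarcoma and 14 in leiomyosarcoma, against the same shares of all genes. Cxcr2, the chemokine receptor of circulating neutrophils, was at least 23.8-fold lower in osteosarcoma, and Trem3 (-7.23 ± 0.24) and Fpr2, a formyl peptide receptor (-7.15 ± 0.83), were lower. Against muscle, 2 of the 16 were higher in osteosarcoma, Pilra (at least 3.27-fold) and Cxcr4 (at least 1.48-fold), a share below the 18.5% of all genes called higher. In leiomyosarcoma 6 of the 16 were higher, where 20.1% of all genes were, among them Fcgr3 (3.59 ± 0.73) and Fpr2 (2.91 ± 0.83). Cxcr2 was not among them, at -0.12 ± 0.18 and 0.02 ± 0.18.

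The phagocyte NADPH oxidase feeds hydrogen peroxide to myeloperoxidase. Its subunits were lower than in marrow for 5 of 5 tested genes in both tumours, where 13.0% and 12.7% of all genes were. One of them, Cybb, passed the filter only through the marrow arrays. Against muscle 4 of the 5 were higher in both, where 18.5% and 20.1% of all genes were. In osteosarcoma Ncf4 was higher than muscle by 3.29 ± 0.49 (adjusted p = 2.31e-04), Cyba by 2.51 ± 0.42 (adjusted p = 5.61e-04), Rac2 at least 3.37-fold and Ncf1 at least 1.94-fold. These proteins are shared with macrophages. Against muscle the macrophage markers moved the same way: 9 of 11 were higher in osteosarcoma and 10 of 11 in leiomyosarcoma, with 1 lower in each. Their summed signals were 5511 to 12487 and 15109.8 to 28686, against 629.8 to 2173 in muscle and 2655 to 3557 in marrow. Against marrow the macrophage markers went the other way. In osteosarcoma 7 of 11 were higher and 1 lower, where 14.8% and 13.0% of all genes were. In leiomyosarcoma 9 of 11 were higher, where 15.2% of genes were. The part of macrophages in these values was not tested.

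**Figure D5:**
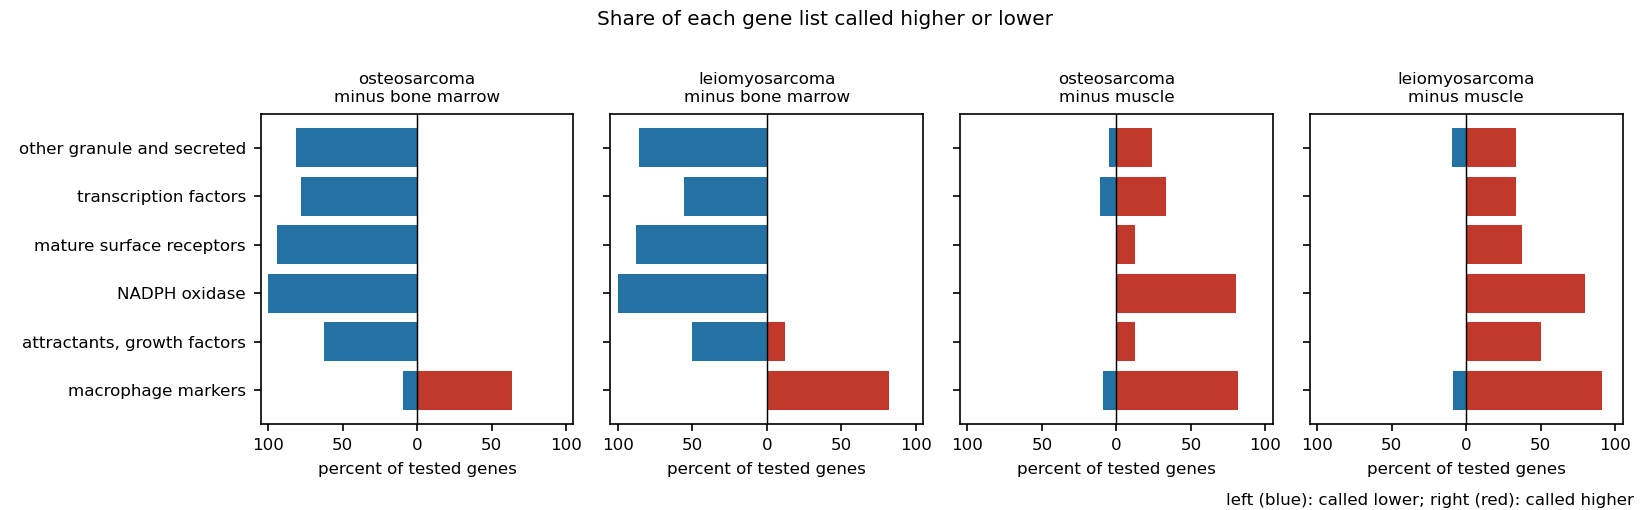
Percent of the tested genes of 6 lists (rows) called lower, drawn to the left, or higher, drawn to the right, in each tumour against marrow and muscle. Neutrophil lists are mostly lower than marrow, whereas 4 of 5 NADPH oxidase genes and 9 or 10 of 11 macrophage markers are higher than muscle.

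Of 8 genes tested that attract or expand neutrophils, 3 were lower in osteosarcoma than in leiomyosarcoma, where 4.34% of all genes were, and 5 were not called. The 3 were Cxcl1, a ligand of Cxcr2 (-3.59 ± 0.51, adjusted p = 0.00118), Il1b (-3.15 ± 0.31, adjusted p = 1.00e-04) and Pf4 (-1.98 ± 0.41, adjusted p = 0.00967). With background level as a block Pf4 was about as large but not called (-1.92 ± 0.52, adjusted p = 0.0547). Cxcl1 was also higher in leiomyosarcoma than in marrow, at least 12.7-fold (adjusted p = 1.33e-04). Csf3, which encodes the growth factor of neutrophils, was not called in any comparison. It was near the limit of detection, being detected on 3 of 4 leiomyosarcoma arrays and in no other tissue. Of the other S100 genes, 9 were tested and 2 were lower in osteosarcoma than in leiomyosarcoma, S100a6 (-2.39 ± 0.30, adjusted p = 5.14e-04) and S100a11 (-1.11 ± 0.32, adjusted p = 0.0462), the latter no longer called with the block, though larger (-1.37 ± 0.39, adjusted p = 0.0667), and not called in 9 of 10 tests that left out a marrow or tumour sample. Macrophage markers moved the same way in 2 of 11, Mrc1 (-2.44 ± 0.52) and Cd14 (-1.45 ± 0.31, and -1.44 ± 0.40 with the block, where its adjusted p was 0.062), and the part of that cell type in the S100 values was not tested.

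Of 4 receptors of S100a8 and S100a9 tested, 1 was lower in osteosarcoma than in marrow, where 13.0% of all genes were, namely Cd33 (-3.13 ± 0.38). In leiomyosarcoma 2 of the 4 were lower than in marrow, where 12.7% of genes were, Cd33 (-1.68 ± 0.38) and Ager (-1.15 ± 0.34). Cd33 was also lower in osteosarcoma than in leiomyosarcoma (-1.46 ± 0.31, adjusted p = 0.0114). Tlr4, the best known of them, differed from marrow by -0.24 ± 0.43 in osteosarcoma and 0.28 ± 0.43 in leiomyosarcoma. Of 7 genes for receptors and inhibitors of the granule proteins, 3 were higher in osteosarcoma than in marrow, where 14.8% of all genes were: Lrp1, a receptor that clears lactoferrin (2.09 ± 0.31, adjusted p = 2.52e-04), Serpinb6a, an inhibitor of cathepsin G (1.90 ± 0.32), and Slc22a17, a receptor of lipocalin 2 (at least 1.85-fold, adjusted p = 4.80e-04). Lrp1 and Serpinb6a were higher than marrow in leiomyosarcoma as well, where 15.2% of genes were, by 2.77 ± 0.31 and 2.20 ± 0.32.

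Granules of eosinophils, basophils and mast cells were represented by 8 tested genes. Of these, 6 were lower in osteosarcoma than in marrow and 5 in leiomyosarcoma, where 13.0% and 12.7% of all genes were. Prg2, eosinophil major basic protein, was at least 873-fold lower in osteosarcoma and Epx at least 34.5-fold. Prg2, Prg3, Epx and Mcpt8 passed the filter only through the marrow arrays, so their differences from marrow follow in part from the filter. None of the 8 was called between the tumours or against muscle. Prg2, Prg3, Epx and Mcpt8 were detected on no array outside marrow, so those comparisons could not call them. Cpa3 varied widely, at 7.24 ± 3.00 (SD, n = 4) in leiomyosarcoma and 7.91 ± 2.39 (SD, n = 2) in muscle. In osteosarcoma it was 4.99 ± 0.23 (SD, n = 4) and was detected on no array. Tpsb2 and Cma1 also varied in leiomyosarcoma, at 6.36 ± 2.06 and 6.05 ± 1.61 (SD, n = 4).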

How the data were processed

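Biotin-labelled RNA was hybridised to Illumina bead arrays. The deposited intensities are average bead signals per probe with 1 background constant per array subtracted, which is why dim probes are negative; the deposited detection p-values, per the file headers, come with each probe. A second deposited table of intensities differs from the first by that constant. Scanner software and scaling are not given in the sources used here.

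Intensities were background-corrected with neqc from the detection p-values (offset 16), quantile-normalised and taken to log2 (limma 3.58.1, R 4.3.3). Probes with a detection p under 0.05 on at least 2 arrays were kept (21383, of which 18013 had a name). Probe names came from the platform annotation: 34885 probes had 1 symbol (34807 matched a current gene ID), 18 had several and 10378 were not listed. The probe with the highest mean stood for a gene (4323 genes had more than 1 kept). One fit with a mean per tissue used all 12 arrays, with no covariate, and adjusted over 11754 genes. An "at least" fold is given where no array of 1 tissue detected the gene: the bright mean is set against, per array, the higher of the lowest detected signal and the probe's own. Levels are given with SD, differences with SE. Number of arrays limits the precision.

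The fit was tested on simulated data. Members and lists were chosen with earlier results of these data known. Named genes are the members and up to 4 called genes with the largest difference per list. They also include the 6 genes with the closest profile and the 4 best correlated in tumours. Tspoap1 and the other neighbours of Mpo, and genes named for not being called, were added after their values were seen. Replicate numbers follow the order in which samples are listed within each tissue, so a shared number is no sign of a shared animal. Of 14 same-numbered pairs none deviated together with r over 0.1 (-0.08 to 0.08). Neither this check nor the replicate block, which groups samples by that number, can test pairing by animal. Same-numbered samples were not treated as pairs. The samples that share an animal code, muscle replicate 1 and bone marrow replicate 2, are not such a pair (r = -0.018). With 2 samples in a normal tissue their deviations mirror each other, so the check cannot settle pairing by animal. Alternatives covered scaling, background, detection filter, probe choice, background level, model and each sample left out. Figures used matplotlib 3.10.9.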

Additional observations from a re-analysis of the deposited data

Results flagged for a closer look

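In groups of 4, a sample stood apart when its gap to the nearest other, over the range of the group, exceeded Dixon's 95% critical value; chance marks about 1 in 20 groups, and 20 groups of member levels were examined. Ltf in osteosarcoma 1 was at 6.36 log2 units against 5.07 to 5.18 in the other osteosarcomas. The same sample gave the highest osteosarcoma signals of Mpo, Camp, S100a8 and S100a9 and the most skeletal muscle RNA, and the part of muscle in these values was not tested. Elane in osteosarcoma 4 was at 5.24 against 5.50 to 5.55 in the other 3, with a signal of 21.5 that was still detected.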

How the results depend on the processing

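Of 1342 values of the 10 members under the alternatives, 1277 kept their direction and their side of the threshold, and no called difference turned round. All 10 members were called against marrow and between marrow and muscle under every alternative that tested them; with detection required on at least 4 arrays, 7 were tested and called. Counts against muscle were less stable. In osteosarcoma against muscle 3 members were called, 6 with median scaling and 3 to 5 with a sample left out (5 without muscle replicate 2). In leiomyosarcoma against muscle 4 were called, 7 with median scaling, 1 without background correction, and 2 without a detection filter, with background level as a block, in the arrays of lower background alone and with the replicate block, and 2 to 4 with a sample left out (2 without muscle replicate 1, either marrow or leiomyosarcoma 4). Between the tumours 1 was called, and 1 to 2 with a sample left out (2 without osteosarcoma 1). Counts over all genes fell without background correction, from 3273 to 2129 for osteosarcoma and from 3276 to 2095 for leiomyosarcoma against marrow, from 3884 to 2548 for osteosarcoma against muscle, and from 899 to 508 between the tumours. The last was 524 in the arrays of higher background alone and 1428 with no minimum fold. The replicate block, which groups samples by listing order alone, gave 873 between the tumours, 818 of them shared. Mpo there was 3.12 (adjusted p = 0.00134). Median scaling moved the median of all genes to between -0.20 and -0.34 in comparisons with normal tissue, and the members near the limit of detection moved down with it. The cause of these changes was not tested. A random block for the shared animal code could not be fitted. Signal over background limits Ctsg, Ngp, Camp, Ltf and Lcn2 outside marrow, and 2 samples each limit muscle and marrow.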
